A study of Homo sapiens with 6 samples.

Results

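EGFR, TGFBR1, JAG1, ADORA2B, ABCC5, GOLM1, ISCU, PHF6, LIMK1 and NEK2 are 10 genes that the literature reports as targets of the microRNA miR-128. They were chosen by name from that literature, at a time when earlier results of these arrays were known, and all probes that the platform annotation assigns to them were taken. This gave 20 probes of the 48803 on the array, and 10 of the 18665 genes that the annotation names. Of the 20 probes, 10 were detected on all 6 arrays and 10 on none, so that 7 of the 10 genes could be tested.

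The arrays carried RNA from HEK293T, a human embryonic kidney line that expresses the SV40 large T antigen. There were 3 control arrays and 3 arrays of cells transfected in a well of a plate with 4 µg of cloned hsa-miR-128, which the design text describes as biological triplicates. Not stated are whether controls received an empty plasmid, how long after transfection RNA was taken, which hairpin was cloned or what share of cells took it up. The mature microRNA is not measured on this array, so its level in the transfected cells is not known from these data.

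MicroRNAs are short RNAs that guide Argonaute proteins to messenger RNAs. Pairing of the seed, the bases just behind the 5′ end, lowers the stability and the translation of the bound transcript, and an array sees only the first of these. miR-128 is best known from brain, where it is abundant in neurons, and from glioma, where its level is low. The 10 genes lie at different places in the cell: growth factor, purine and cytokine receptors and a Notch ligand at the surface, a transporter, a Golgi membrane protein, a mitochondrial scaffold, a nuclear protein and a pair of kinases.

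The sequences below show what the transfected construct could produce, with the seed (bases 2 to 8) in capitals. They are from RefSeq on GRCh38.p14, are written 5′ to 3′, and include both hairpin genes because the labels do not say which was used. The 3p arm is the same from either gene, at chr2:135665446-135665466 (plus strand) for MIR128-1 and at chr3:35744527-35744547 (plus strand) for MIR128-2. The 5p arms differ but share a seed, at chr2:135665411-135665433 and chr3:35744490-35744512.
hsa-miR-128-3p: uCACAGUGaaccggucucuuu
hsa-miR-128-1-5p: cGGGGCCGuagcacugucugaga
hsa-miR-128-2-5p: gGGGGCCGauacacuguacgaga

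In the hairpins, at chr2:135665397-135665478 and chr3:35744476-35744559 on the plus strand, the capitals mark the mature 3p arm.
MIR128-1: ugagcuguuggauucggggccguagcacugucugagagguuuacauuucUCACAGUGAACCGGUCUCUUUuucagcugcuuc
MIR128-2: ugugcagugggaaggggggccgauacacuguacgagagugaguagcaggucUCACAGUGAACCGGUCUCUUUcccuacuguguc

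The seed letters CACAGUG pair with CACUGUG in a transcript. Of 2545 mature entries in the RefSeq table, 4 carry CACAGUG at bases 2 to 8: the 2 copies of miR-128-3p, miR-216a-3p (chr2:55988981-55989002, minus strand) and miR-3681-3p (chr2:12199174-12199195, plus strand). The same letters stand at bases 3 to 9 in miR-27a-3p (chr19:13836447-13836467, minus strand) and miR-27b-3p (chr9:95085505-95085525, plus strand), and also in miR-9985. The miR-27 pair is shown, with these letters in capitals, because a site reported for miR-128 can hold the match of these better known microRNAs as well.
hsa-miR-216a-3p: uCACAGUGgucucugggauuau
hsa-miR-3681-3p: aCACAGUGcuucauccacuacu
hsa-miR-27a-3p: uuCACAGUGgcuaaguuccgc
hsa-miR-27b-3p: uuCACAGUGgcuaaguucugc

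No 3′ UTR sequences were used here, so whether each transcript on the array holds such a site was not tested.

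The mean signal of an array lay between 408 on transfected array 1 and 660 on control 1. Probes with a detection p under 0.01 numbered from 12995 to 14345, on the same arrays. Normalization evens out such differences, so a normalized level and a signal can order the arrays differently. On the second principal component over genes, with 31.7% of the variance, control 1 (-30.99) and transfected array 1 (-22.46) stood apart from the other 4 arrays (0.96 to 24.12). On the first, with 52.1%, transfected array 3 (-0.97) lay between the controls (-32.15 to -13.69) and the other transfected arrays (28.57 and 40.94). Position on the slide and group ran together, since sections A to C held the controls and D to F the transfected cells. Of 8 genes fixed as markers of HEK293 and epithelial cells, 6 were detected on at least 3 arrays, among them KRT8, KRT18, VIM and NEFL, while PAX2 and NEFM were on none. None of 4 blood or 2 hepatocyte markers on the array was detected on at least 3 arrays, against 1 of 3 endothelial (VWF) and 3 of 4 fibroblast markers (COL1A1, COL3A1 and LUM). In bulk RNA, fewer cells of a type and less RNA per cell cannot be told apart.

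None of the 7 measured genes passed the limma test. Over all genes tested, 0 of 9797 had an adjusted p under 0.05 (0%), the lowest being 0.0502. None of the 7 had an unadjusted p under 0.05, a level that 28.5% of all genes reached. None had groups without overlap, which 32.8% of all genes had. The log2 difference, transfected minus control, was above 0 for 5 genes (47.9% of all genes) and below 0 for 2 (52.1%), with a median of 0.02 beside -0.03 over all genes, and it ran from -0.41 to 0.49. The middle range of all genes, from the 25th to the 75th percentile, was -0.38 to 0.29. The 95% interval of the difference did not reach -1, the value of a halving, for any of the 7, and its lower end lay between -0.86 and -0.07.

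**Figure D1:**
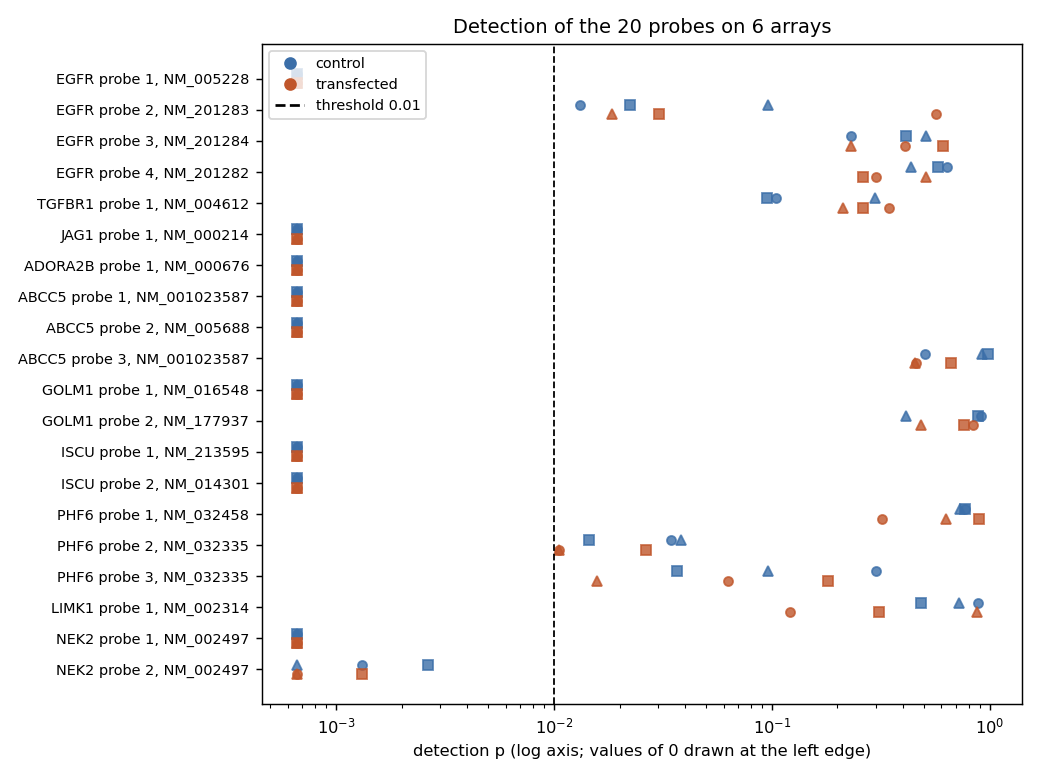
Detection p (log axis) of each of the 20 probes on each of the 6 arrays, with control arrays in blue and transfected arrays in orange. The circle, square and triangle stand for arrays 1, 2 and 3, the dashed line is the threshold of 0.01, and values of 0 are drawn at the left edge. Of the 20 probes, 10 lie left of the line on all arrays and 10 right of it on all arrays, among them every probe of TGFBR1, PHF6 and LIMK1.

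EGFR, the epidermal growth factor receptor and a tyrosine kinase that drives proliferation, was high on 1 array of each group. On its detected probe, assigned to NM_005228, the normalized log2 intensity was 8.94, 7.80 and 7.68 in controls 1 to 3 and 9.57, 8.31 and 8.003 on transfected arrays 1 to 3. Before normalization its signals were 740, 306 and 355 in controls 1 to 3 and 582, 419 and 414 on transfected arrays 1 to 3. After it, control 1 and transfected array 1, the arrays apart on the second component, were the highest of their groups. Control 1 then lay above 2 of the 3 transfected arrays. The means were 8.14 ± 0.70 (SD, n = 3) and 8.63 ± 0.83, a log2 difference of 0.49 ± 0.46 (SE, 95% interval -0.56 to 1.54, adjusted p = 0.499). Without transfected array 1 the difference was 0.02, without control 1 it was 0.89, and without transfected array 3 it was 0.80, with adjusted p values of 0.983, 0.239 and 0.276. A linear term for the slide section gave 2.61 (adjusted p = 0.0219, over the alternatives 0.0219 to 0.983), in a fit that called 1108 of all genes. That value lies above the reported interval. Section and group ran together, so this fit separates them only through the trend from array to array within each group. It cannot decide which of the 2 a difference belongs to.

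The other 3 EGFR probes are assigned to NM_201282, NM_201283 and NM_201284, which encode truncated forms of the receptor that lack the kinase. Their detection p ran from 0.261 to 0.635, 0.0132 to 0.567 and 0.231 to 0.607, so none was well above background on any array. The labelled transcript of a probe is the annotation's, and whether a probe also binds other transcripts of its gene was not tested.

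JAG1, a membrane ligand that activates Notch receptors on neighbouring cells, had the same arrays on top. Its single probe gave 8.24, 7.68 and 7.75 in controls 1 to 3 and 8.98, 8.01 and 7.57 on transfected arrays 1 to 3, so the groups overlapped. Before normalization the signals were 503, 289 and 364 in controls 1 to 3 and 416, 365 and 337 on transfected arrays 1 to 3, with control 1 the highest. After it, transfected array 3 was the lowest of all 6 arrays and transfected array 1 the highest. The log2 difference was 0.29 ± 0.35 (SE, interval -0.50 to 1.09, adjusted p = 0.594). It was -0.10 without transfected array 1 and 0.60 without transfected array 3. It was 0.07 with controls 2 and 3 against transfected arrays 2 and 3. A linear term for the slide section, which ran together with group, gave 1.73 (adjusted p = 0.0389, over the alternatives 0.0389 to 0.838), above the reported interval. The count of all genes called in that fit stands with EGFR.

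ADORA2B, the low-affinity adenosine receptor that couples to cyclic AMP, had the lowest log2 difference of the 7. The log2 intensities were 9.29, 9.002 and 9.20 in controls 1 to 3 and 8.58, 8.60 and 9.07 on transfected arrays 1 to 3. Transfected arrays 1 and 2 lay below every control, and transfected array 3 lay between controls 2 and 3. From 9.16 ± 0.15 (SD, n = 3) to 8.75 ± 0.27 the difference was -0.41 ± 0.20 (SE, interval -0.86 to 0.04, adjusted p = 0.209), or 1.33-fold, and the test was not passed. The adjusted p was 0.0642 without transfected array 3, where the difference was -0.57, and 0.435 with the 2 arrays apart on the second component left out, where it was -0.26. Of the 16 alternatives, the test was passed with array weights (adjusted p = 0.0174, over the alternatives 0.0174 to 0.474), where 5002 of the 9797 genes passed.

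TGFBR1, the type I receptor kinase for transforming growth factor beta, was not well above background. On its single probe the signal was 153, 129 and 142 in controls 1 to 3 and 126, 147 and 141 on transfected arrays 1 to 3, with detection p values of 0.0949 to 0.345. No level or difference of TGFBR1 can be read from these arrays.

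ABCC5, an export pump for cyclic nucleotides and organic anions also known as MRP5, had 3 probes, of which 2 were detected. The probe that represented the gene gave 8.55, 8.70 and 9.02 in controls 1 to 3 and 8.68, 8.79 and 8.84 on transfected arrays 1 to 3, with the transfected arrays inside the range of the controls. The difference was 0.02 ± 0.18 (SE, interval -0.40 to 0.44, adjusted p = 0.953). On the other detected probe, assigned to NM_005688, the values were 8.78, 8.77 and 8.91 against 8.75, 8.60 and 8.75. There every transfected array lay below every control, and the difference was -0.12 ± 0.16 (adjusted p = 0.650 over all probes tested). The sign of the ABCC5 difference therefore depended on the probe, and both differences were smaller than their standard error.

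GOLM1, a Golgi membrane glycoprotein also called GP73, had 1 detected probe of 2. Its log2 intensities were 9.02, 9.22 and 9.29 in controls 1 to 3 and 8.97, 9.63 and 8.93 on transfected arrays 1 to 3. Transfected array 2 lay above all controls and transfected arrays 1 and 3 below them, so the spread was 0.39 (SD, n = 3) in the transfected group against 0.14 in the controls. The difference was 0.0013 ± 0.23 (SE, interval -0.52 to 0.52, adjusted p = 0.997), and without transfected array 2 it was -0.23.

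ISCU, the scaffold on which iron-sulfur clusters are built, was detected by 2 probes. The probe assigned to NM_213595, known as the mitochondrial form, gave 11.36, 11.63 and 11.56 in controls 1 to 3 and 11.45, 11.03 and 11.33 on transfected arrays 1 to 3. Transfected arrays 2 and 3 lay below all controls and transfected array 1 between controls 1 and 3, with a difference of -0.25 ± 0.19 (SE, interval -0.67 to 0.18, adjusted p = 0.396). The probe assigned to NM_014301, known as the cytosolic form, gave 8.66, 8.64 and 8.82 against 8.69, 8.48 and 8.49, a difference of -0.16 ± 0.17 (adjusted p = 0.569 over all probes tested). The sign was the same on both probes, and on both of them transfected arrays 2 and 3 were the lowest of the 6 arrays. With controls 2 and 3 against transfected arrays 2 and 3 the difference on the representing probe was -0.42, and without transfected array 2 it was -0.13. With array weights it was -0.49 and passed (adjusted p = 0.0119, over the alternatives 0.0119 to 0.746). The count of all genes that passed with array weights stands with ADORA2B.

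PHF6, a nuclear PHD finger protein mutated in an X-linked intellectual disability syndrome and in T-cell leukaemia, was near the detection limit. Its 3 probes had detection p values of 0.319 to 0.893, 0.0105 to 0.0382 and 0.0158 to 0.302. The second of these, assigned to NM_032335, missed the threshold most narrowly, with signals of 167, 149 and 164 in controls 1 to 3 and 161, 172 and 179 on transfected arrays 1 to 3. Without the filter on detection its log2 difference was 0.38 ± 0.20 (SE, adjusted p = 0.344), a value for a probe not well above background on any array.

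LIMK1, the kinase that inactivates the actin-severing protein cofilin, had 1 probe, with a detection p of 0.121 to 0.881. Its signals of 125, 114 and 130 in controls 1 to 3 and 135, 145 and 121 on transfected arrays 1 to 3 were not well above background. Whether its transcript differed between the groups was not detectable at this signal.

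NEK2, a mitotic kinase that releases the linker between centrosomes, had differences above 0 on both of its probes. The representing probe gave 11.60, 10.88 and 11.04 in controls 1 to 3 and 11.95, 11.39 and 11.63 on transfected arrays 1 to 3. Before normalization its signals were 3886, 1871 and 2544 in controls 1 to 3 and 2714, 2575 and 3596 on transfected arrays 1 to 3, with control 1 the highest. After it, transfected arrays 1 and 3 lay above all controls and transfected array 2 between controls 1 and 3. The difference was 0.48 ± 0.24 (SE, interval -0.07 to 1.04, adjusted p = 0.225). The other probe, assigned to the same transcript, gave 6.63, 6.84 and 6.81 in controls 1 to 3 against 7.52, 7.04 and 6.96. There every transfected array lay above every control, and the difference was 0.41 ± 0.20 (adjusted p = 0.238 over all probes tested). Without transfected array 1 it was 0.24, and 0.17 with controls 2 and 3 against transfected arrays 2 and 3. Array weights gave 0.45 on the representing probe and a pass (adjusted p = 0.0399, over the alternatives 0.0399 to 0.542), while a linear term for the slide section gave 1.15 (adjusted p = 0.0962). As for ISCU, the count of all genes passing with array weights stands with ADORA2B. Across the 10 detected probes of the 7 genes, none passed over all probes tested (0.00704% of which passed) and none had an unadjusted p under 0.05, against 26.1% of all probes tested. The groups did not overlap for 2 of the 10, ABCC5 on NM_005688 and NEK2 on its other probe, against 31.2% of all probes.

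**Figure D2:**
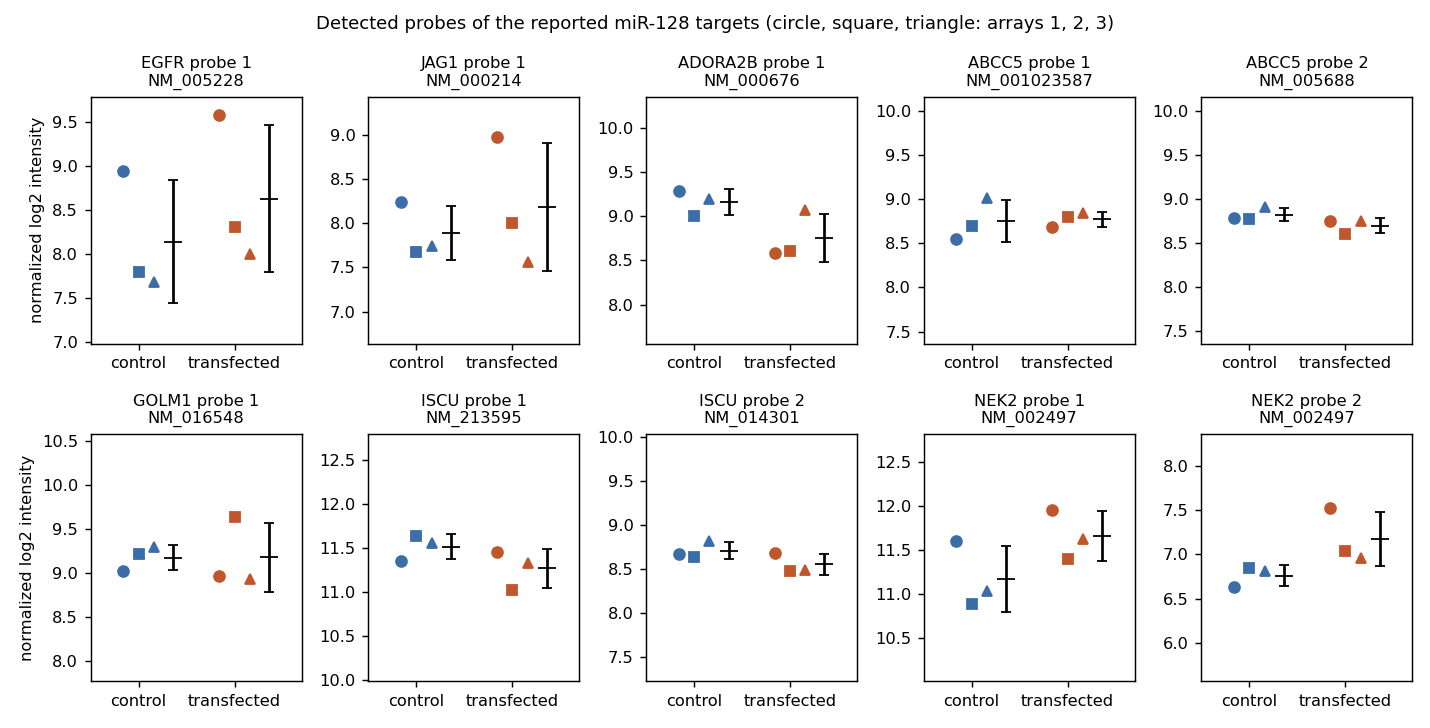
Normalized log2 intensity of the 10 detected probes in each array, with control arrays in blue and transfected arrays in orange. Circle, square and triangle stand for arrays 1, 2 and 3, the black bars are mean and SD over 3 arrays, and all panels span the same range. EGFR and JAG1 are highest on array 1 of each group, and the groups do not overlap on the second ABCC5 and the second NEK2 probe.

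A mean signal rested on 24 to 61 beads for these 10 probes, with a median relative standard error over beads of 3.75% to 5.03%. The moderated standard errors of the difference between groups, which include the spread between arrays, were 0.16 to 0.46 on the log2 scale.

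**Figure D3:**
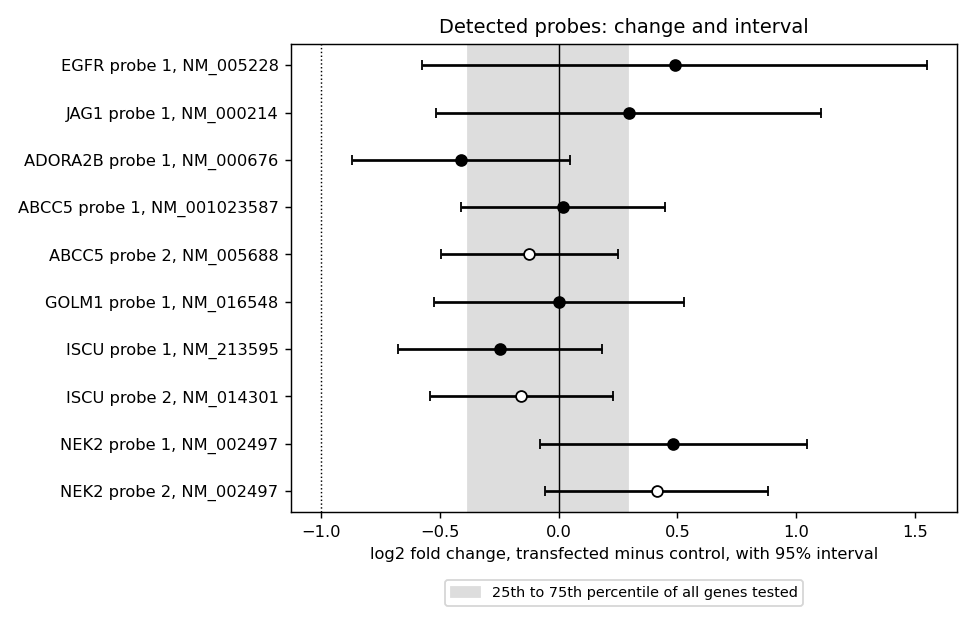
Log2 fold change, transfected minus control, of the 10 detected probes with its 95% interval, from the test over all probes. Filled points are the probes that represent a gene, the grey band is the 25th to 75th percentile of all genes (-0.38 to 0.29), and the dotted line marks -1. Every interval includes 0 and none reaches -1.

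Genes with the most similar pattern over the 6 arrays were CCNA1 and CD55 for EGFR (Pearson r 0.999 and 0.997) and LEPR and ERMP1 for JAG1 (0.998 and 0.996). They were UCKL1 and ADCY9 for ADORA2B (0.996 and 0.989), SUPT16H and ALDH18A1 for ABCC5 (0.989 and 0.987) and ZNF248 and CBY1 for GOLM1 (0.992 and 0.987). For ISCU they were DMAC2L and MAGEH1 (0.987 and 0.979), and for NEK2 ETS1 and DYNC2I1 (0.988 and 0.986). These are the 2 highest among all genes tested, over 6 arrays that share a slide and a normalization, and they describe the pattern only. EGFR, JAG1, ADORA2B and NEK2 each had 201 to 405 genes with r above 0.9, GOLM1 and ABCC5 19 and 18, and ISCU 80.

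The 10 genes belong to pathways whose other genes were listed by function. Of 173 such genes in 10 lists, the 10 targets left out, 117 were measured. None passed over all genes tested, and 35 of the 117 (29.9%) stood at an unadjusted p under 0.05, beside 28.5% of all genes. In 12 the transfected mean was the higher and in 23 the lower. Higher genes at this level made up 12.4% of all genes and lower genes 16.1%. In each list the 2 genes with the smallest p, the targets left out, are named below, and the adjusted p values are those over all 9797 genes. All of the genes so named passed with array weights, where 5002 of all genes did. Counting that setting, ERBB2 passed under 5 of its 16 alternatives, SSH3 under 4, SMAD4 and DLL3 under 3 and ABCC10 under 5 of 15. The counts of NOTCH1 and NUBP1 stand with their values, and the rest passed under 1 or 2. The counts and medians of a list include its measured targets. By list, the share at an unadjusted p under 0.05 ran from 9.09% (PHD finger proteins) to 66.7% (ABCC transporters, 3 measured), beside 28.5% of all genes. Counts of lower genes stand beside 52.1% of all genes with a difference below 0. No list was tested as a set.

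Among ERBB receptors, ligands and adaptors, 13 were measured and 3 stood at an unadjusted p under 0.05, all lower, with a list median of 0.03. ERBB2, the partner receptor of EGFR that binds no ligand of its own, was at 9.01 ± 0.14 (SD, n = 3) in controls and 7.91 ± 0.45 in transfected cells, a log2 difference of -1.09 ± 0.24 (SE, adjusted p = 0.0558). The groups did not overlap. SHC1, an adaptor that carries the signal to RAS, had -0.59 ± 0.18 (adjusted p = 0.0874). EGFR, at 0.49, and ERBB2 had differences of opposite sign, and neither passed as reported.

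In the list of TGF-beta family receptors, ligands and SMADs 14 were measured, 9 of them higher, and 5 higher and 1 lower stood at an unadjusted p under 0.05. The median was 0.26, or 0.16 without control 2, 0.0373 without the filter on detection and 0.52 with a linear section term. SMAD4, the SMAD shared by all branches of the pathway, had a difference of 0.70 ± 0.19 (adjusted p = 0.0733), from 9.85 ± 0.18 to 10.56 ± 0.19. ACVR2A, an activin receptor, had 0.71 ± 0.22 (adjusted p = 0.0937). Of the 5 higher genes counted, SKIL was detected on the 3 transfected arrays but on only 1 control. Its transfected arrays were enough to meet the filter on detection, which favoured a higher transfected value in advance. The p of SKIL is therefore not independent of the filter.

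In the Notch list 20 were measured, of which 14 were lower and 6 higher, with a median of -0.38, and 6 lower and 1 higher stood at an unadjusted p under 0.05. The median was -0.20 without control 1, -0.25 without transfected array 2, -0.23 without the filter on detection and 0.0534 with a linear section term. NOTCH1, a receptor of JAG1, was at 10.03, 9.997 and 9.85 in controls 1 to 3 and at 9.10, 8.42 and 8.84 on transfected arrays 1 to 3. Its difference was -1.18 ± 0.21 (adjusted p = 0.0502), and it passed under 8 of 16 alternatives, with adjusted p values of 0.000476 to 0.248. DLL3, a ligand known as an inhibitor of Notch signalling in the same cell, had -0.89 ± 0.27 (adjusted p = 0.0914), and a linear section term gave 0.07. The difference of JAG1, 0.29, was of the other sign, and turned without transfected array 1.

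For adenosine receptors, enzymes and transporters, 9 were measured, 7 of them lower, with a median of -0.13 and 2 at an unadjusted p under 0.05. The median was -0.20 without control 1 and -0.0870 without control 2. SLC29A2, an equilibrative nucleoside transporter, had -0.59 ± 0.18 (adjusted p = 0.0942) with groups that did not overlap. ADA, which deaminates adenosine, had -0.57 ± 0.24 (adjusted p = 0.165) with groups that overlapped, and a linear section term gave 0.19.

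Only 3 of 12 ABCC transporters were measured, with a median of 0.02. That median is the value of ABCC5 itself, whose sign depended on the probe. ABCC10, also called MRP7, was detected on the 3 controls but on no transfected array. It met the filter on detection through the controls alone, which favoured a lower transfected value in advance. Its p is therefore not independent of the filter. The transfected mean was at least 1.30-fold lower (measured means 6.38 and 5.27, adjusted p = 0.0593). The bound sets the mean of the controls against the mean, over the 3 transfected arrays, of the lowest signal detected on each array or of the gene's own signal where that was higher. It concerns the means of these arrays and leaves out the spread between them. ABCC4, an exporter of cyclic nucleotides like ABCC5, had 0.46 ± 0.16 (adjusted p = 0.122) and groups that did not overlap.

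In the Golgi list 14 were measured, 8 higher and 6 lower, with a median of 0.05 and 3 at an unadjusted p under 0.05. Of the 6, GOLM2 and GOLGA1 were detected on only 2 of the 3 transfected arrays, and the bound of GOLM2 gave no direction. TGOLN2, a protein of the trans-Golgi network, had -0.62 ± 0.18 (adjusted p = 0.0832), and GORASP1, a stacking protein of Golgi cisternae, had -0.41 ± 0.16 (adjusted p = 0.144).

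Iron-sulfur cluster assembly had 15 measured genes, 12 of them lower and 3 higher, with a median of -0.17, and 2 at an unadjusted p under 0.05. Of the 12, LYRM4, NFS1, IBA57 and FDX1 were detected on only 2 of the 3 transfected arrays, and the bound of NFS1 gave no direction. NUBP1, a scaffold of the cytosolic branch, had values of 9.83, 9.82 and 9.93 in controls 1 to 3 and 8.94, 8.60 and 9.19 on transfected arrays 1 to 3. Its difference of -0.95 ± 0.20 missed the threshold (adjusted p = 0.0527), and it passed under 7 of 16 alternatives, with adjusted p values of 0.000577 to 0.248. HSPA9, the mitochondrial chaperone that takes clusters off ISCU, had 0.60 ± 0.18 (adjusted p = 0.0874).

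Of the PHD finger proteins 11 were measured, 5 higher and 6 lower, with a median of -0.04, and 1 stood at an unadjusted p under 0.05. Among the 6, PHF1 and PHF19 were detected on only 2 of the 3 transfected arrays. PHF3, a regulator of RNA polymerase II transcripts, had 0.73 ± 0.22 (adjusted p = 0.0880) and groups that did not overlap. PHF23 had -0.51 ± 0.24 (adjusted p = 0.205) and groups that overlapped. It was -0.31 without transfected array 1. A linear section term, which ran together with group, gave -1.44 and a pass (adjusted p = 0.0353, over the alternatives 0.0141 to 0.457). The count of all genes called with that term stands with EGFR.

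Of the LIM kinase and cofilin genes 13 were measured, 6 higher and 7 lower, with a median of -0.03, and 1 higher and 4 lower stood at an unadjusted p under 0.05. SSH3, of the slingshot family of cofilin phosphatases, had -1.04 ± 0.24 (adjusted p = 0.0600). TESK1, a kinase that phosphorylates cofilin as LIMK1 does, was detected on 2 of the 3 transfected arrays and was at least 1.57-fold lower (measured means 7.06 and 6.39, adjusted p = 0.0733).

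NEK kinases and proteins of the centrosome linker had 12 measured genes, 6 higher and 6 lower, with a median of 0.03, and 1 higher and 3 lower stood at an unadjusted p under 0.05. NEK8, a kinase of the primary cilium, was detected on the 3 controls but on no transfected array. The same held for CROCC, the linker protein rootletin that NEK2 phosphorylates. Both met the filter on detection through the controls alone, which favoured a lower transfected value in advance. Both are among the 3 lower genes counted, and their p values are not independent of the filter. The remaining one, CEP68, was detected on the 3 controls and on 1 transfected array. Its controls were enough to meet the filter, so the same limit holds for it. The transfected mean of NEK8 was at least 1.06-fold lower (measured means 6.08 and 5.32, adjusted p = 0.0779). That of CROCC was at least 1.16-fold lower (6.21 and 5.51, adjusted p = 0.0835).

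**Figure D4:**
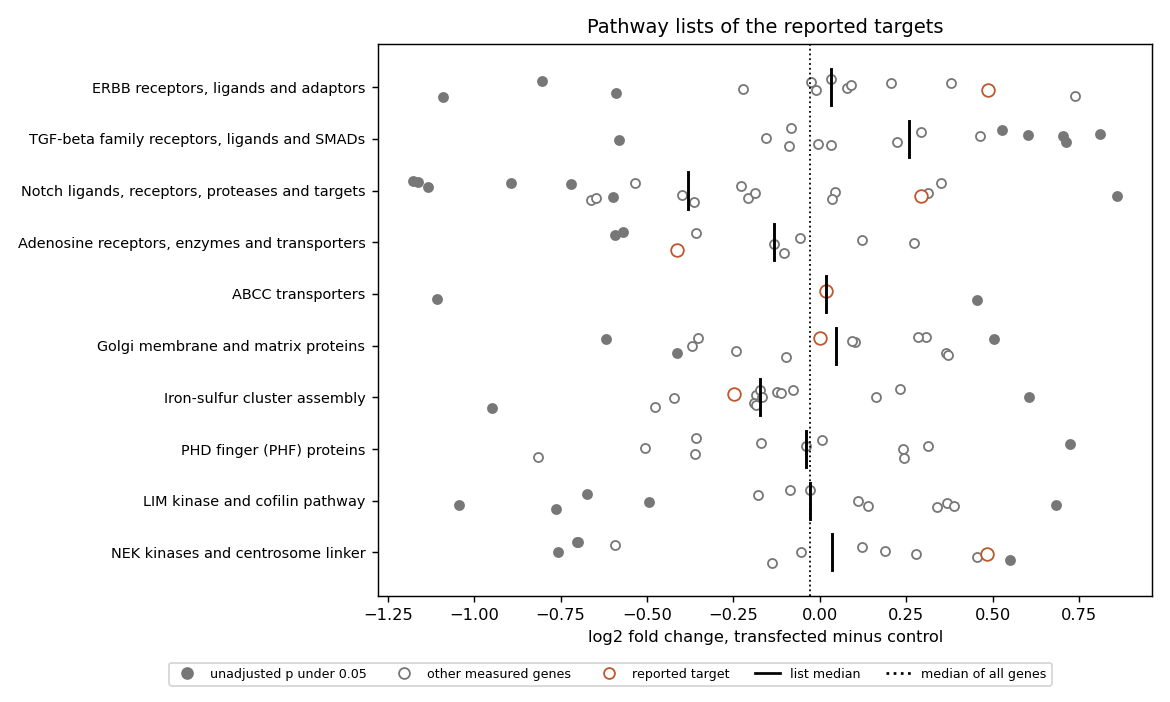
Log2 fold change, transfected minus control, of each measured gene in the 10 pathway lists, with the reported targets in orange and genes at an unadjusted p under 0.05 filled. The black bars are the list medians, from -0.38 for Notch to 0.26 for the TGF-beta family, and the dotted line is the median of all genes (-0.03). All 7 measured targets are open symbols.

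**Figure D5:**
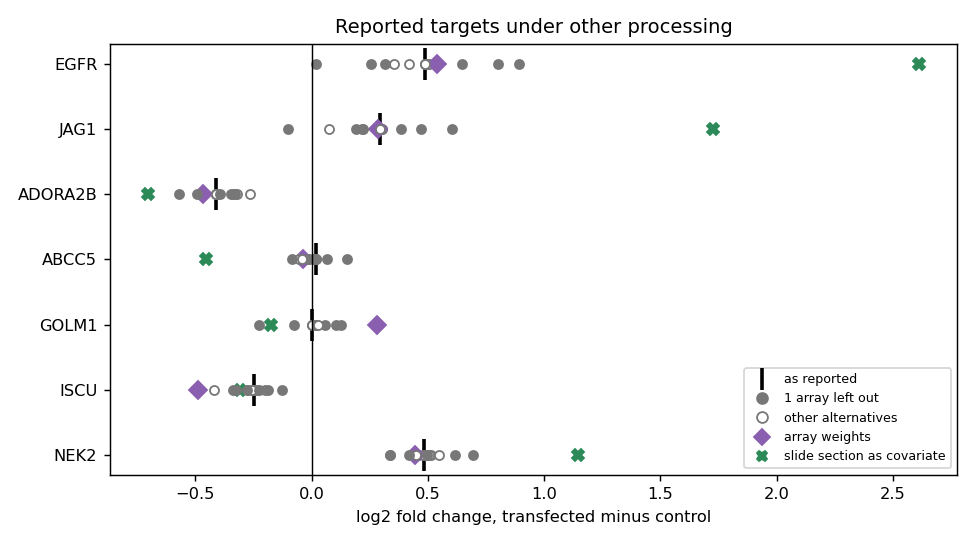
Log2 fold change, transfected minus control, of the 7 measured targets as reported (black bars), with 1 array left out (grey), with array weights (purple diamonds), with the slide section as covariate (green crosses) and under the other alternatives (open circles). EGFR moved from 0.02 to 2.61 and NEK2 from 0.34 to 1.15, while ABCC5 and GOLM1 lay on both sides of 0.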

How the data were processed

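Per the file headers, the deposited table gives, per array, every probe's signal intensity averaged over beads, the bead count, the standard error and a detection p-value. BeadStudio, without a version, appears in the submitters' processing notes. The authors' second deposited table, of processed intensity, was a straight line of the same signals (Pearson r rounded to 1 on each array), with a background of 116 to 141 subtracted and a mean of 420, uncentred; how it was normalized is not stated, and it served as an alternative. Its column medians were 9.47, 10.3 and 10.0 for controls 1 to 3 and 15.5, 12.5 and 10.5 for transfected arrays 1 to 3.

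Here limma 3.58.1 (R 4.3.3) was used with the steps of neqc: normexp background correction that takes the background from detection p values, an offset of 16, quantile normalization and log2. Probe names came from the platform annotation, updated to RefSeq symbols: 27578 probes had 1 gene, 13 several and 21212 none here. The filter required detection (p under 0.01) on 3 or more arrays and left 14200 probes. The brightest remaining probe stood for each of 9797 genes, and a second fit tested all kept probes. The groups were compared with lmFit and eBayes, two-sided, Benjamini-Hochberg adjusted over all genes or probes, with 0.05 as the threshold. With 3 arrays per group, their small number limits the precision. A signal not detected on all arrays of the dimmer group was given as a bound on the difference of the means, without the spread between arrays.

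The 10 targets, the pathway lists and the markers were chosen with earlier results of these data known. Named were the 10 targets, the 2 genes of smallest p per pathway list, and the 2 genes most alike in pattern to each measured target. The alternatives were another background correction or normalization, other filters, the authors' table, array weights, the slide section, the mean over probes and leaving out arrays. The labels number no replicates, so the numbers used follow deposit order. No coordinates are given for genes, because the arrays name no genome build.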

Additional observations from a re-analysis of the deposited data

How the results depend on the processing

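No paired analysis was possible because the labels number no replicates, and all arrays were on 1 slide. The slide sections ran together with the groups, so the fit with the section separates them only through the trends within groups. Of the 7 measured targets, none passed under 14 of the 16 alternatives; 3 genes (3 of their probes) passed with array weights and 2 (2 probes) with the slide section as covariate. The count over all 9797 genes was 464 without background correction, 273 after cyclic loess and 279 with arrays scaled to equal medians. It was 328 among the fewer genes detected on all 6 arrays, adjusted over those alone. Over all 9797 genes again, it was 5002 with array weights and 1108 with the section. It was 0 to 1531 with 1 array left out, the highest without transfected array 3, then 493 without transfected array 1 and 12 without control 1. In the same order the pathway genes passing, here counted with the measured targets, were 5, 3, 3, 4, 63 and 16. They were 0 to 22 with 1 array left out (22 without transfected array 3, 5 without transfected array 1). As reported, 124 pathway genes including the targets were measured, beside 9797 genes in all. With controls 2 and 3 against transfected arrays 2 and 3, chosen after seeing the data, 565 genes and 5 pathway genes passed. The cause of these shifts was not tested. The sign turned for DLL3 (0.0702) and ADA (0.191) with the section. JAG1 ran from -0.10 (without transfected array 1) to 0.60 with 1 array left out. GOLM1 ran from -0.23 (without transfected array 2) to 0.12, turned without control 1 (-0.0766), and was -0.17 with the section. ABCC5 ran from -0.0850 (without control 1) to 0.15, turned without control 2 (-0.00949) or transfected array 3 (-0.0160), and also with array weights (-0.0375), the section (-0.46), the mean over probes (-0.0527) and controls 2 and 3 against transfected arrays 2 and 3 (-0.0396). EGFR, ADORA2B, ISCU and NEK2 kept their sign under all 16. The medians of the TGF-beta, adenosine and iron-sulfur lists kept their sign under all 16, those of the Notch and Golgi lists under 15, and those of the other lists under 9 to 13. Signal over background limits TGFBR1, PHF6 and LIMK1, for which no detected level was measured.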
